A study of Homo sapiens with 4 samples.

Results

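Cancer-testis antigen families were followed in A375, an established human melanoma cell line. Members were taken by name: symbols beginning with MAGE, GAGE, PAGE, XAGE, SSX, CTAG, CT45, CT47, CT55 or BAGE, together with PRAME. This gave 125 of the 26484 rows of the expression table. The name rule also took in some relatives, not all of them testis-restricted. These were the type II MAGE genes, the CTAGE genes and SSX2IP, which encodes a partner of an SSX protein. RNA-seq libraries had been made from polyadenylated RNA of parental A375 cells with wild-type p53 (2 libraries) and of A375 cells carrying a CRISPR-Cas9 knockout of p53 (2 libraries), all grown in DMEM. The labels name no edited line that kept p53, and leave unsaid whether libraries within a group were separate cultures, or whether the knockout libraries, numbered 2 and 8, were separate clones. P-values therefore measure only the spread between these libraries, which may be technical, and the loss of p53 and other effects of editing or selecting cells cannot be told apart.

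Cancer-testis genes are normally transcribed mainly in germ cells of the testis and are silenced in most adult tissues, in large part by DNA methylation of their promoters. Many are active in tumours, melanoma among them, and fragments of their proteins shown on the cell surface can be recognised by T cells. Many of them lie on the X chromosome, some in arrays of near-identical copies. Type I MAGE proteins and some type II MAGE proteins bind E3 ubiquitin ligases and alter their activity, whereas PRAME is a leucine-rich repeat protein that serves as a substrate receptor of a cullin ligase.

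The libraries held 29230554 and 36331894 reads (parental 1 and 2) and 30334054 and 32160978 reads (knockout 2 and 8). All values here are normalized counts, that is, reads divided by a library factor with no correction for gene length, unless stated otherwise. The p53 target EDA2R, a receptor of the TNF receptor family, stood at 252.18 and 249.99 in the parental libraries against 16.8 and 42.0 in the knockout libraries, and the p53 target DDB2, a DNA damage sensor, at 2094 and 2126 against 1019 and 1138. CDKN1A, the cell-cycle inhibitor p21, overlapped between the groups (3561 and 3889 against 4898 and 2603). The p53 target MDM2 differed little (4359 and 4775 against 4325 and 4111, limma log2 fold change -0.11). The knockout libraries differed from each other more than the parental libraries did: 8.14% of the 15431 genes tested differed by more than 2-fold within the knockout pair, against 0.894% within the parental pair. The melanocyte lineage factor SOX10 was abundant in every library (25662 to 30033) while MLANA and TYR, markers of pigmented melanocytes, were at 0 throughout. Other such markers were low but not at 0: TYRP1 (1.05 to 14.3), DCT (0.877 to 12.7) and PMEL. PMEL was higher in both knockout libraries (28.5 and 28.1 against 55.8 and 36.1) but was not called. Of 8 testis cell markers, the germ cell genes DAZL, PRM1 and PRM2 were at 0 in all libraries, and DDX4, SYCP3 and TNP1 reached at most 5.26. The Sertoli cell genes AMH (167 to 346) and SOX8 (87.9 to 746) were detected in every library. MITF, the master regulator of melanocytes, was called lower by DESeq2 (1645 and 1562 against 849 and 1050, adjusted p = 0.00272), and its part in the results on members was not tested.

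To show what the genes have in common at their start sites, the 250 bases before the RefSeq start site (GRCh38.p14) were read for the 71 members with an entry. The motif GCGCATG, searched on both strands, was found in 22 of these 71 windows and in 3.77% of all 35116 RefSeq windows. It occurred in all 12 GAGE windows read, in 5 of 6 PAGE windows and in that of CT55. Of the 27 windows of expressed members 5 held it, and of the 44 windows of silent members 17 did. The 120 bases before the start site are shown for 4 expressed carriers, with matches to GCGCATG in capitals. They are shown because they hold the same letters while the genes differ in level and in their values in the knockout libraries.
CT55, chrX:135171399-135171518, minus strand: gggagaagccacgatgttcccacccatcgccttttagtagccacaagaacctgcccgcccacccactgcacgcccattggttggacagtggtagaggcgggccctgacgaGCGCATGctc
GAGE1, chrX:49598893-49599012, plus strand: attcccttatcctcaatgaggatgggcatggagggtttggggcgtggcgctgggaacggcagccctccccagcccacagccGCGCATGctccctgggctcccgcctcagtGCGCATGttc
PAGE1, chrX:49695985-49696104, minus strand: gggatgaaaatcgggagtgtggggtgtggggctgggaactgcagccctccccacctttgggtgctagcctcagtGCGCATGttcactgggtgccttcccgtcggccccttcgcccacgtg
PAGE5, chrX:55220226-55220345, plus strand: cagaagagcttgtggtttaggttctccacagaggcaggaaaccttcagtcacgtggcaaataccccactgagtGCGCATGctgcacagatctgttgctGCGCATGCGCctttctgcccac
A second motif, CCGGATGT, was found in 11 of the 71 windows, against 0.592% of all windows. It occurred in 7 of 10 MAGEA windows, 2 of 9 MAGEB windows and 2 of 3 MAGEC windows, and in no GAGE or PAGE window. Of the 27 windows of expressed members 7 held it, and of the 44 windows of silent members 4 did: MAGEA2B, MAGEA9, MAGEA9B and MAGEB10. MAGEA2B, MAGEA9 and MAGEA9B share 88.1%, 94.0% and 84.7% of their 50-base transcript stretches with other genes, so their value of 0 does not give their level. No match was found in the windows of the abundant MAGEA3, MAGEA6 and PRAME. The windows of MAGEA4 and MAGEC2, members at the top of the expression range, are shown with the matches to CCGGATGT in capitals.
MAGEA4, chrX:151912354-151912473, plus strand: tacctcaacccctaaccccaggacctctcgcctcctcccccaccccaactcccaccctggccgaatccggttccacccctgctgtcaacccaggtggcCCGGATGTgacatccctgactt
MAGEC2, chrX:142205291-142205410, minus strand: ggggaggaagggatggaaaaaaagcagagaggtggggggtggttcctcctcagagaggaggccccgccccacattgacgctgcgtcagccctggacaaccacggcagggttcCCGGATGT
Both motifs were chosen after the sequences had been seen, copies within an array are not independent, and a match is a description of the letters only. A p53 half-site was matched in 0 of 27 windows of expressed members and in 2 of 44 windows of silent members, against 5.57% of all windows. The number of CpG dinucleotides per 250 bases had a median of 9 in expressed members and 8 in silent members, against 11 over all windows.

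A member was called expressed when any library reached a normalized count of 5, and silent otherwise. By this limit 36 members were expressed and 89 were silent, 68 of the latter with 0 reads in all 4 libraries. The values nearest the limit were 5.86 for SSX6, 6.31 for MAGEA10-MAGEA5 and 6.84 for CTAGE1 inside it, and 4.39 for CTAGE7P, 3.51 for MAGEB18 and 3.51 for XAGE2 outside it. MAGEA10-MAGEA5 reached the limit in knockout 2 alone, and the pseudogene SSX6 in knockout 8 alone. Of the 109 members with a locus in GENCODE 29, 95 were on the X chromosome. The melanoma cells expressed 10 of 15 MAGEA members, 3 of 3 MAGEC members and 2 of 10 MAGEB members. In the other X-linked families, 3 of 6 PAGE, 3 of 11 SSX, 2 of 10 CT45, 1 of 22 GAGE and 1 of 3 CTAG members were expressed, and CT55 was too. None of the 13 CT47 members and none of the 5 XAGE members reached the limit. Outside these families, 5 of 9 type II MAGE genes, 2 of 10 CTAGE genes, 1 of 5 BAGE genes, SSX2IP and PRAME were expressed.

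MAGEA4, a type I MAGE gene, supplied more of the members' counts than any other member. Its share of all member counts was 31.9% and 32.3% in the parental libraries and 35.2% and 35.7% in the knockout libraries. Together the 125 members made up 0.210% and 0.218% of all normalized counts in the parental libraries and 0.210% and 0.227% in the knockout libraries. On a per-length scale, the mean over the 4 libraries per kilobase of exon, MAGEA4 stood at 7545, PAGE5 at 4953, PAGE2 at 2491, MAGEC2 at 2483, MAGEA3 at 2405 and PRAME at 2120. On the same per-length scale CT55 stood at 11.1, SSX1 at 19.1 and MAGEA1 at 38.9, so the expressed members spanned a wide range of levels.

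**Figure D1:**
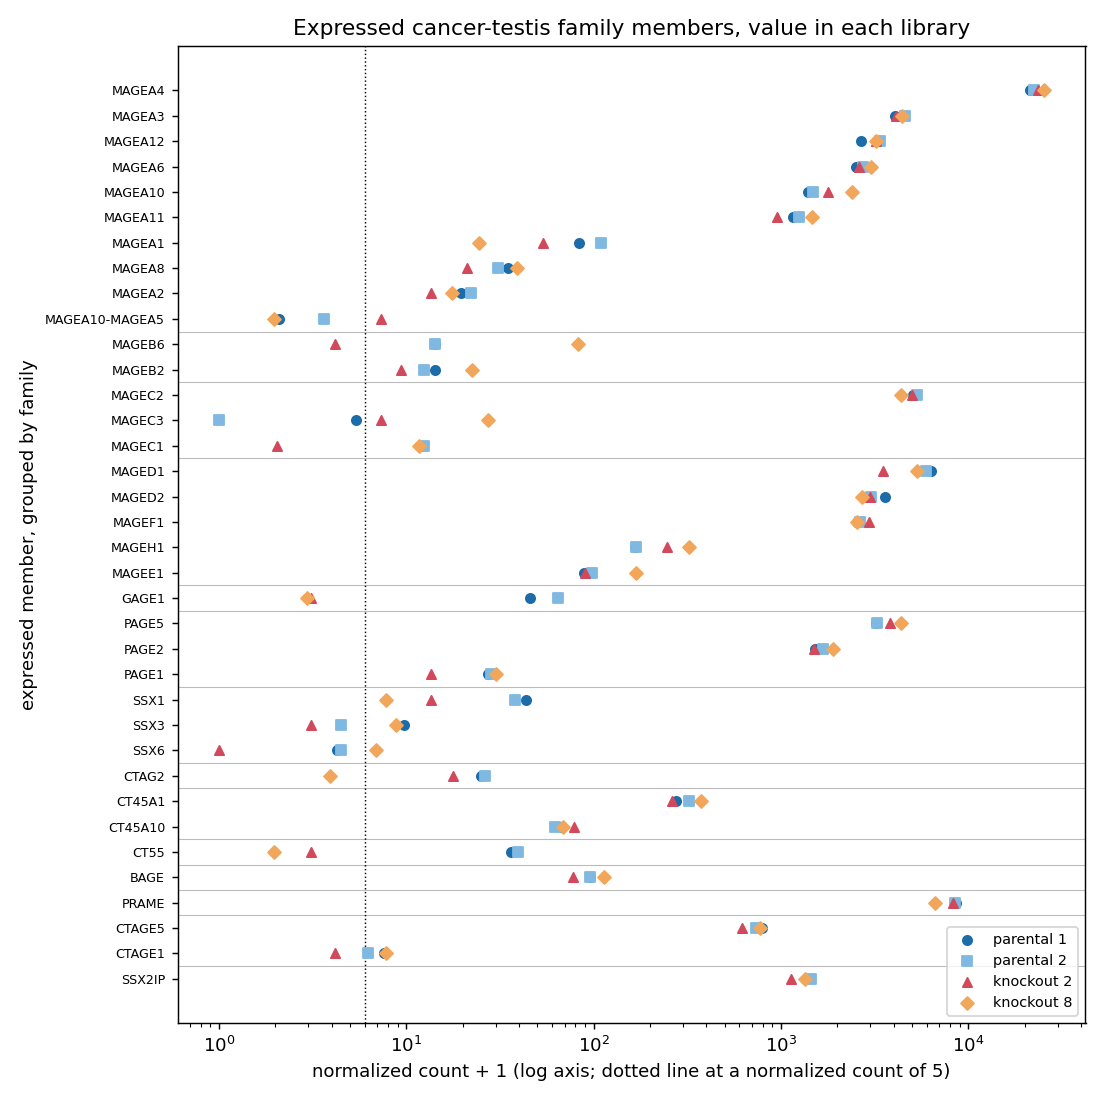
Normalized counts (plus 1, log axis) of the 36 expressed members in each of the 4 libraries, with 1 marker per library and members grouped by family. Most strongly expressed members, such as MAGEA4 and PRAME, have 4 nearly coincident markers, whereas CT55, GAGE1 and MAGEB6 are spread widely.

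Many silent members share most of their sequence with other genes. Of the 54 members at 0 that have GENCODE 29 transcripts, 43 shared over 80% of their 50-base stretches with transcripts of another gene, and 23 shared all of them. SSX2, for example, had 0 stretches of its own apart from SSX2B. Of the 21 silent members with 1 read or more and with transcripts, 3 shared over 80% and 14 under 20%. Only 6 members at 0 shared under 20%: MAGEB3, MAGEB4, MAGEB5, PAGE3, SSX9 and XAGE3. For these 6, a count of 0 allows a normalized count of up to 3.29, 2.63, 3.16 and 2.93 in parental 1, parental 2, knockout 2 and knockout 8, which covers counting error only. Neither read length nor the treatment of reads that align to several copies is stated in the sources used, so a value of 0 for the other members does not give their level.

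**Figure D2:**
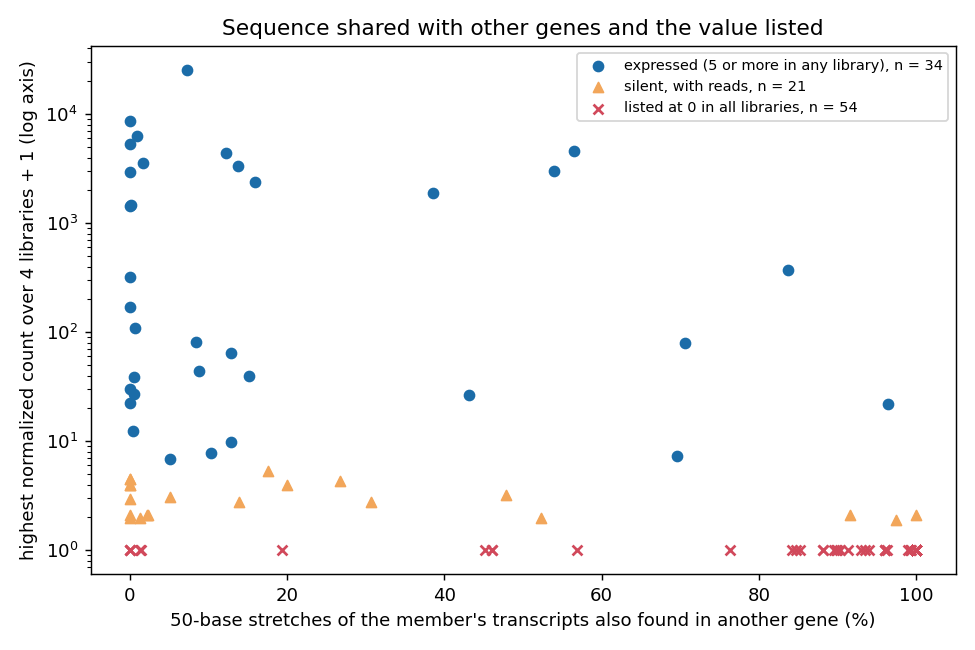
For each of the 109 members with GENCODE 29 transcripts, the percentage of its 50-base stretches found in another gene (x axis) against its highest normalized count over the 4 libraries plus 1 (log y axis). Of the 34 expressed members plotted, 26 lie under 20%, and of the 54 members listed at 0, 43 lie above 80%.

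Expressed members mostly shared less sequence, with 26 of 34 under 20% and 2 above 80%. CT45A1, the exception with the most reads, shared 83.7% of its stretches with other genes, and MAGEA2 shared 96.4% with MAGEA2B, which was listed at 0. MAGEA3 and MAGEA6 were both abundant, and 54.9% of the stretches of MAGEA3 were also in MAGEA6. Their sum was 6573 and 7338 in the parental libraries and 6735 and 7466 in the knockout libraries. It does not depend on how reads were divided between them, but it misses any shared reads that were discarded. These 4 sums overlapped between the groups. The other 21 GAGE members were all at 0, so every GAGE read that was counted stood at GAGE1. GAGE1 was among the members under 20%, at 12.9%, but this is a share of 3134 stretches in a long annotated entry. GAGE12C, for comparison, had 478 stretches, all of them shared with other genes. The low share of GAGE1 therefore does not show that the reads counted there came from that copy alone.

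Knockout cells were then compared with parental cells, member by member. By limma on log2(normalized count + 1), 0 of the 31 expressed members that passed the filter were called at an adjusted p of 0.05, and 0% of all 15431 genes were. DESeq2, run on the recovered reads, called 2 members lower and 0 higher among the 34 with an adjusted p, where it called 2.44% of all genes (1.22% lower, 1.21% higher). At an unadjusted limma p under 0.05 there were 4 lower members (GAGE1, CT55, SSX1, MAGEA1) and 3 higher (MAGEA10, MAGEH1, PAGE5), against 6.16% and 5.85% of all genes. The groups did not overlap in 17 of 31 members, 12 lower and 5 higher in the knockout, against 46.4% of all genes (23.7% lower, 22.8% higher). CT55 and GAGE1, among the 12 lower, passed the filter of 10 in at least 2 libraries only through the parental pair. The median log2 fold change was -0.03 over the 31 members and -0.01 over all genes tested. Exact two-sided permutation of the 4 libraries gives no p below 0.333 for any 1 gene. Leaving out knockout 2 raised the limma count to 14 of 31 members, against 18.8% of all genes, and leaving out knockout 8 raised it to 13, against 32.6% of all genes. The lone knockout library is then assumed to vary like the parental pair. Without either parental library the count stayed at 0.

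CT55 and GAGE1 were the members that DESeq2 called. CT55 (chrX:135156536-135171398, GENCODE 29, minus strand), a testis-expressed gene of unsettled function, gave normalized counts of 35.1 and 38.6 in the parental libraries and 2.10 and 0.977 in the knockout libraries. Both parental values lay far above both knockout values. In reads this was 76 against 3, a 24.4-fold difference after scaling (95% counting interval 8.03 to 121). The log2 fold change was -3.93 ± 0.43 (SE) by limma, with an adjusted p of 0.176, and -4.59 ± 1.14 (SE) by DESeq2, with an adjusted p of 0.00512. By edgeR's quasi-likelihood test the adjusted p was 0.171.

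GAGE1, of the family of small acidic GAGE antigens, gave 45.0 and 63.2 in the parental libraries and 2.10 and 1.95 in the knockout libraries. Again the groups were far apart, with 113 against 4 reads, a 27.2-fold difference (95% counting interval 10.3 to 101). The log2 fold change was -4.16 ± 0.38 (SE) by limma (adjusted p = 0.169) and -4.74 ± 0.99 (SE) by DESeq2 (adjusted p = 2.31e-04). Under edgeR the adjusted p was 0.171. DESeq2 called 0 members without parental 1 (0.261% of all genes) and 0 without parental 2 (0.294% of all genes). Both genes were weakly expressed, and in bulk RNA fewer expressing cells and less RNA per cell cannot be told apart.

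The PAGE genes with the same promoter letters gave other values, a difference between genes that was not tested. PAGE5 gave 3227 and 3265 in the parental libraries and 3835 and 4395 in the knockout libraries, with both knockout values above both parental values (log2 fold change 0.34 ± 0.10 SE, limma adjusted p = 0.328). PAGE2 gave 1519 and 1674 against 1500 and 1895, and PAGE1 gave 26.3 and 27.2 against 12.6 and 29.3. In PAGE2 and PAGE1 the groups overlapped.

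SSX1 encodes a nuclear repressor known as the fusion partner in synovial sarcoma. It gave 42.8 and 36.8 in the parental libraries and 12.6 and 6.84 in the knockout libraries. The groups did not overlap, at a log2 fold change of -1.98 ± 0.41 (SE) and a limma adjusted p of 0.261. SSX3 (8.77 and 3.51 against 2.10 and 7.81) and SSX6 (3.29 and 3.51 against 0 and 5.86) were near the detection limit and overlapped.

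CTAG2, the LAGE-1 antigen related to NY-ESO-1, gave 24.1 and 25.4 against 16.8 and 2.93. Knockout 8 alone carried most of this difference, and the log2 fold change was -1.62 ± 0.79 (SE) with a limma adjusted p of 0.500. CTAG1A shared 90.3% of its stretches with CTAG1B and both were at 0. CT45A1 (273 and 322 against 261 and 373) overlapped between groups, while CT45A10 (65.8 and 61.4 against 77.9 and 67.4) was higher in both knockout libraries by less than its error (log2 fold change 0.19 ± 0.23 SE). BAGE gave 94.3 and 94.7 against 76.8 and 113, which also overlapped.

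Among the MAGEA genes, the most abundant ones differed little between the groups. MAGEA4 gave 21453 and 22493 in the parental libraries and 23623 and 25419 in the knockout libraries, with no overlap and a log2 fold change of 0.16 ± 0.10 (SE, limma adjusted p = 0.569). MAGEA12 (2673 and 3371 against 3210 and 3196) and MAGEA11 (1162 and 1253 against 946 and 1472) overlapped, as did MAGEA3 and MAGEA6 taken singly. MAGEA10 was higher in both knockout libraries, at 1389 and 1488 against 1780 and 2380 (log2 fold change 0.52 ± 0.16 SE, limma adjusted p = 0.362). MAGEA1, the founding member of the family, was lower in both, at 82.2 and 108 against 52.6 and 23.4. Its log2 fold change was -1.39 ± 0.45 (SE) with a limma adjusted p of 0.373. Among the weaker genes, MAGEA8 (34.0 and 29.8 against 19.996 and 38.1) overlapped and MAGEA2 (18.6 and 21.1 against 12.6 and 16.6) was lower in both knockout libraries. The readthrough transcript MAGEA10-MAGEA5, too low to be tested, gave 1.10 and 2.63 against 6.31 and 0.977. MAGEA members thus lay on both sides of 0, with none past the limma threshold.

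In the MAGEC and MAGEB families the knockout libraries often differed from each other. MAGEC2, which binds the ligase TRIM28, gave 5079 and 5317 against 5008 and 4370, lower in both knockout libraries with a log2 fold change of -0.15 ± 0.10 (SE). MAGEC1 gave 10.96 and 11.4 against 1.05 and 10.7, and MAGEC3 gave 4.39 and 0 against 6.31 and 26.4. MAGEB6 gave 13.2 and 13.2 against 3.16 and 81.1, so that 1 knockout library lay below and the other above the parental pair, 25.7-fold apart. MAGEB2 showed the same order, at 13.2 and 11.4 against 8.42 and 21.5. Of the 31 members tested, 6 differed over 2-fold within the knockout pair and 0 within the parental pair, against 8.14% and 0.894% of all genes. The 6 were CTAG2, MAGEA1, MAGEB2, MAGEB6, MAGEC1 and PAGE1, all with a mean under 100. Such weak genes made up 13 of the 31 members but 3156 of the 15431 genes tested. The share over all genes is therefore no like background, and the count is not read as a trait of the members.

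**Figure D3:**
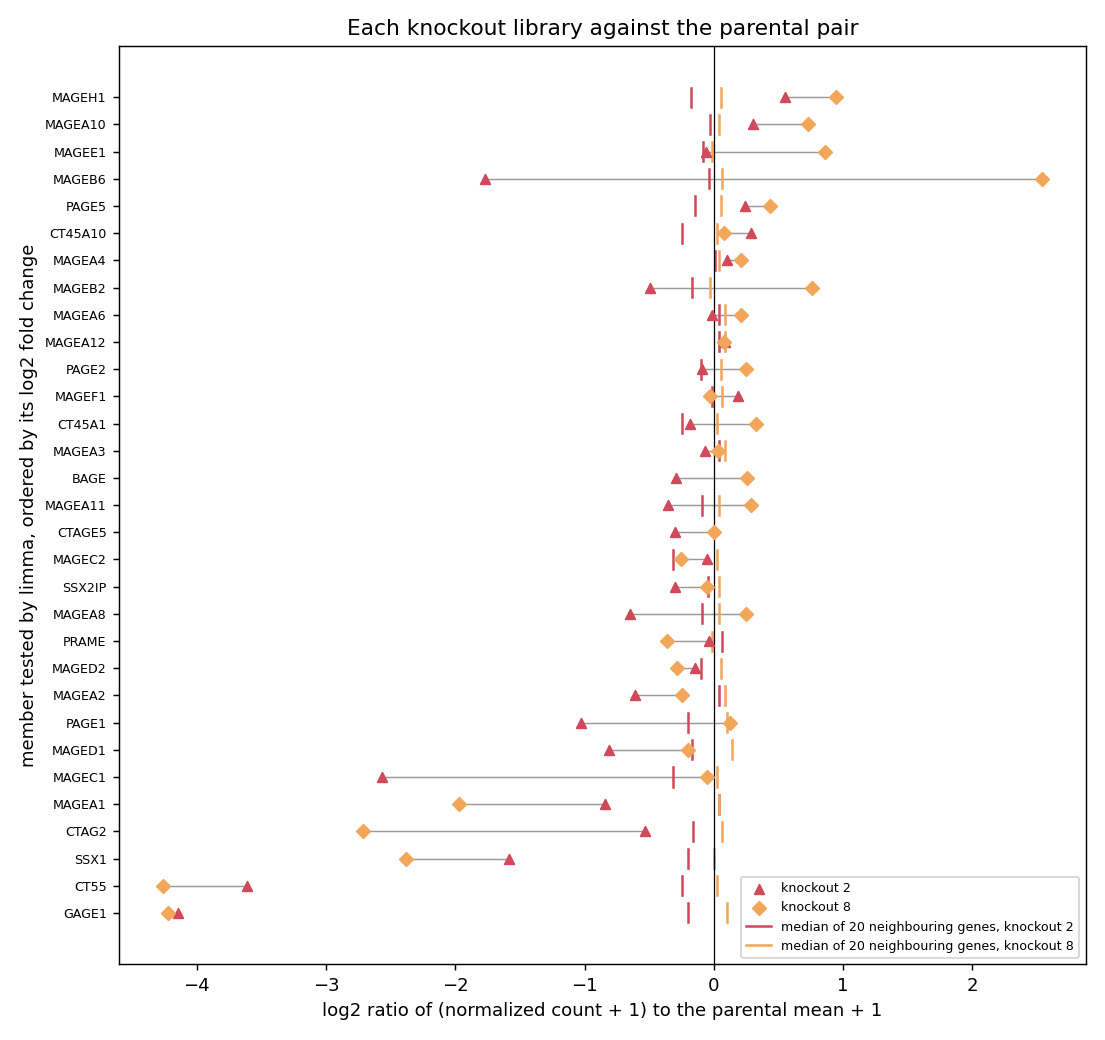
For each of the 31 tested members, the log2 ratio of each knockout library to the parental mean, with a pseudocount of 1 (x axis), ordered by log2 fold change. Triangles are knockout 2 and diamonds knockout 8. Short lines give the median of the 20 nearest genes that are not members and had a mean of at least 100, where a locus was known. GAGE1 lies at -4.15 and -4.22 and CT55 at -3.61 and -4.26, while the medians of their neighbours lie between -0.25 and 0.10, and MAGEB6 has its markers on opposite sides of 0.

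The type II MAGE genes, which are widely expressed in normal tissues, held 3 members with a mean of at least 1000 (MAGED1, MAGED2 and MAGEF1), 2 weaker ones and 4 silent ones. MAGED1, an adaptor of p75 neurotrophin receptor signalling, gave 6357 and 5918 in the parental libraries and 3504 and 5335 in the knockout libraries. Both knockout values were below both parental values, with a log2 fold change of -0.50 ± 0.21 (SE, limma adjusted p = 0.449). MAGED2 (3570 and 3024 against 2985 and 2712) was lower in both knockout libraries and MAGEH1 (166 and 167 against 244 and 321) higher in both. For MAGEH1 the log2 fold change was 0.75 ± 0.20 (SE, limma adjusted p = 0.313). MAGEF1 (2542 and 2629 against 2946 and 2532) and MAGEE1 (87.7 and 96.5 against 88.4 and 168) overlapped.

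PRAME gave 8577 and 8474 in the parental libraries and 8328 and 6635 in the knockout libraries. Both knockout values were lower, knockout 2 only slightly, and the log2 fold change was -0.20 ± 0.13 (SE, limma adjusted p = 0.591). CTAGE5, a gene needed for export of large cargo from the endoplasmic reticulum, overlapped (794 and 739 against 621 and 769), and CTAGE1 was near the limit (6.58 and 5.26 against 3.16 and 6.84). SSX2IP was lower in both knockout libraries by a small margin (1352 and 1443 against 1136 and 1349).

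Members were also counted by level. Of the 13 tested members with a mean under 100, the groups did not overlap in 7 lower and 1 higher, with a median log2 fold change of -0.45. Of the 14 with a mean of at least 1000, 5 were lower and 3 higher, with a median of 0.03. Over all genes in the same ranges, 19.9% were lower and 23.9% higher under 100, and 24.8% and 22.4% from 1000 up. CT55 and GAGE1, among the 7 lower, entered the tested set only through the parental pair, where they were high. MAGEC3, higher in both knockout libraries (4.39 and 0 against 6.31 and 26.4), did not pass the filter. These counts are over members of a chosen list and were not tested.

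The nearest genes were compared by their medians. Around CT55 the 20 nearest expressed genes that are not members had a median log2 ratio of -0.25 in knockout 2 and 0.02 in knockout 8, against -3.61 and -4.26 for CT55 itself. Around GAGE1 the medians were -0.20 and 0.10, against -4.15 and -4.22. Around SSX1 they were -0.20 and 0.00, against -1.58 and -2.38. The lowest ratio of any single neighbour in either knockout library was -0.82 around CT55 and -2.76 around both GAGE1 and SSX1, the last below the ratios of SSX1 itself. Over the 394 genes of the X chromosome that are not members and had a mean of at least 100, the medians were -0.13 and 0.01.

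Genes related by function were read from lists chosen with earlier results of these data known. Of 68 other cancer-testis genes in the table, 36 reached a normalized count of 5 and 30 were tested, with groups not overlapping in 7 lower and 2 higher, against 23.7% and 22.8% of all genes. IL13RA2, a decoy receptor for interleukin-13 and the most abundant of these, gave 34157 and 30755 against 20141 and 29767, lower in both knockout libraries but not called (limma log2 fold change -0.40). Among 35 tested genes of a list on germline silencing, 10 were lower and 10 higher, against the same 23.7% and 22.8%. The list mixes silencers with TET1, TET2 and TET3, which oppose DNA methylation, and with CTCF. TET3 was among the higher genes. DNMT1, the maintenance DNA methyltransferase, gave 10196 and 11099 against 8875 and 9309, and TRIM28, a corepressor, gave 15988 and 17045 against 17092 and 16854. Among 30 tested partners of MAGE and PRAME proteins, 3 were lower and 8 higher, again against 23.7% and 22.8%. limma and DESeq2 called 0 genes of these 3 lists. At an unadjusted limma p under 0.05 there were 1 lower and 0 higher among the other cancer-testis genes. The list on germline silencing held 1 and 0, and the partners 1 and 3. Over all genes the shares were 6.16% lower and 5.85% higher.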

How the data were processed

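Polyadenylated RNA was measured in 4 libraries, after TRIzol extraction and DNase treatment, with a directional NEBNext Ultra II kit, per the labels' protocols. The deposited values are a normalized signal per gene and library. They are read counts scaled by the authors with a single library factor (0.912, 1.14, 0.950 and 1.02 for parental 1, parental 2, knockout 2 and knockout 8): 100% of values were whole multiples of a library's step within 0.001, which returned the reads. The submitters' processing notes name STAR, Picard, HTSeq, DESeq2, deepTools and hg38, without versions; annotation, strand setting and handling of multiply aligned reads were not found there. Knockout columns are numbered 2 and 8, unlike the labels' replicates, and were assigned to the group only.

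Members and lists were chosen with earlier results of these data known. Values were tested as log2(normalized count + 1) with limma 3.58.1 (trended variance), keeping genes that reached 10 in at least 2 libraries. P-values were adjusted by Benjamini-Hochberg, and 0.05 was the threshold. Such fold changes understate those of weakly expressed genes. Recovered reads were tested with edgeR 4.0.16 (quasi-likelihood), DESeq2 1.42.0 and limma-voom. Other alternatives were a pseudocount of 0.1, other filters, summed copies and each library left out. The fits were tested on simulated data with an equal spread in both groups. In the real data the knockout pair differed more than the parental pair, so this does not show how the fits behave there. The naming rule took PRAME, up to 4 of the most abundant expressed members per family, members with separate groups and an unadjusted p under 0.05, members called by any tool and members whose knockout libraries differed over 4-fold. Further members were named after their values were seen. Copies were defined by shared 50-base stretches of GENCODE 29 transcripts, a choice made after seeing the data. Intervals were computed on reads pooled within each group. They and the floors of 3 reads cover counting error alone and leave out the spread between libraries. In addition, PCR duplicates cannot be told from separate molecules without molecular identifiers. One check of the labels is not reported here.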

Additional observations from a re-analysis of the deposited data

How the results depend on the processing

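No paired analysis was possible because the knockout columns carry numbers that are not the labels' replicate numbers. The count of expressed members, 36, was 28 to 53 under the other limits and family choices. Members called went from 0 by limma to 2 by DESeq2, and 0 to 14 with each library left out. Over all genes the calls went from 0 to 398 by DESeq2, to 102 with no filter, and 0 to 5023 with each library left out. DESeq2 itself, with each library left out (an alternative chosen after seeing the data), called 0 to 8 members and 39 to 2611 genes. edgeR, limma-voom, the pseudocount of 0.1, the other filters and summed copies called 0 members. CT55 and GAGE1 kept their direction under every setting run. Both parental values lay far above both knockout values, so this was fixed in advance and adds no support. Under limma and edgeR with all 4 libraries the adjusted p of CT55 and GAGE1 stayed above the threshold.

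Log2 fold changes near 0 changed sign. BAGE, -0.02 by limma, was 0.0099 by edgeR with TMM, 0.013 with RLE and 0.0096 by DESeq2; MAGEA11, -0.03 by limma, was 0.0025, 0.0056 and 0.0020. With each library left out in turn, the log2 fold changes of these members crossed 0: BAGE -0.30 to 0.26, CT45A1 -0.18 to 0.33, CTAGE5 -0.30 to 0.0055, MAGEA11 -0.35 to 0.29, MAGEA12 -0.074 to 0.26, MAGEA3 -0.10 to 0.076, MAGEA6 -0.011 to 0.21, MAGEA8 -0.65 to 0.25, MAGEB2 -0.49 to 0.76, MAGEB6 -1.77 to 2.54, MAGEE1 -0.057 to 0.86, MAGEF1 -0.030 to 0.19, PAGE1 -1.03 to 0.13 and PAGE2 -0.088 to 0.25. The cause was not tested. Depth limits the weak members: CT55 and GAGE1 had 3 and 4 reads in the knockout libraries together, and their counting intervals are wide.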
